A study of Mus musculus with 6 samples.

Results

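The genes described here are the targets through which the transcription factor p53 stops the cell cycle or starts cell death, together with the Bcl2 family and the caspases that carry out apoptosis. They were chosen from a list of 33 gene symbols, and every probe set that the platform annotation assigns to exactly 1 of those symbols was taken. This gave 80 probe sets for 31 genes, out of 34958 probe sets and 18194 genes with exactly 1 symbol in a table of 45101 probe sets. The remaining 2 symbols, Trp53 and Bax, are not analysed here, so the level of the p53 gene itself forms no part of the results. RNA was measured on 6 one-colour arrays of EGFP-positive cells, sorted by fluorescence from dissociated intermediate mesoderm of E11.5 mouse embryos. This tissue forms the nephric duct, the kidney and the gonad, and Pax2 encodes a transcription factor that its kidney-forming cells need. Of the arrays, 3 came from Pax2 heterozygotes, whose titles give the genotype EGFP/+, and 3 from Pax2 nulls, whose titles give EGFP/EGFP. No wild-type group is part of the comparison, and heterozygotes and nulls also differ in the number of EGFP alleles that the sort relied on. The labels do not say how many embryos made up a sample.

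The protein p53 is a transcription factor that is held at a low level by Mdm2, which marks it for destruction, and that accumulates after DNA damage and other stress. It then activates genes that halt the cell cycle, such as Cdkn1a, genes that adjust metabolism and repair, and genes of the intrinsic death pathway, such as Bbc3 and Pmaip1. In that pathway, BH3-only proteins bind and neutralise the protective members Bcl2, Bcl2l1 and Mcl1, which frees the effectors Bax and Bak1 to open the mitochondrial outer membrane. Released cytochrome c assembles with Apaf1 into the apoptosome, which activates caspase 9. Pax2 is known for a role in the survival of nephric duct and kidney mesenchyme cells, and the arrays give the levels of this pathway's transcripts with 1 functional Pax2 allele and with none.

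The values are log2 levels after the authors' between-array normalization, with array medians between 6.12 and 6.24. Bacterial hybridization controls, which are added to each sample, divided the arrays into 3 pairs, each with 1 array of each genotype. Heterozygote 1 was matched with null 3 (pair 1), heterozygote 2 with null 1 (pair 2), and heterozygote 3 with null 2 (pair 3). The labels give no such pairs. Actb probes at the 3′ end exceeded those at the 5′ end by -0.26 to 0.00 log2 units and Gapdh probes by 0.55 to 0.78, with overlap between genotypes. Xist was near background in null 1 (4.02) and the Y-linked Eif2s3y in heterozygote 2 (3.92), whereas both transcripts read 7.90 or more in the other 4 arrays. Among markers of the labelled tissue, the 11 genes of kidney mesenchyme had mean log2 levels of 9.70 to 10.20 in heterozygotes and 9.09 to 9.28 in nulls. The 12 measured nephric duct genes had mean levels of 9.68 to 10.13 and 7.98 to 8.60, the 12 stromal genes 7.84 to 8.49 and 9.23 to 9.55, and the 16 macrophage genes 5.09 to 6.18 and 6.14 to 7.36. Macrophage means overlapped between genotypes and those of the kidney mesenchyme, nephric duct and stromal lists did not. Endothelial means also overlapped (5.20 to 5.62 in heterozygotes, 5.26 to 5.66 in nulls), as did erythroid means (6.79 to 7.79 and 7.21 to 8.16). Neural means did not overlap (6.72 to 6.84 and 7.07 to 7.56). Summed on the linear scale, macrophage levels did not overlap (9.69 to 10.8818 in heterozygotes, 10.8822 to 12.33 in nulls). Summed kidney mesenchyme levels did (13.30 to 13.89 and 12.94 to 13.52). Higher in nulls were 15 of the macrophage genes, 10 of the stromal genes and 1 of the kidney mesenchyme genes, against 46.4% of all genes. Of the nephric duct genes, 0 were higher in nulls. In such bulk samples, fewer cells of a type and less RNA per cell cannot be told apart. Pax2 itself is not analysed here.

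None of the 31 genes passed the test of null against heterozygote (limma, adjusted p under 0.05), where 1.39% of all 18194 genes did. At an unadjusted p under 0.05 there were 2, Perp and Phlda3, against 9.73% of all genes, and in the same 2 all nulls lay on one side of all heterozygotes, against 13.6% of all genes. Of the 31 differences, 18 were positive and 13 negative, with a median of 0.08 on the log2 scale, where the median over all genes was -0.02. The median size of a difference was 0.14 among the members and 0.15 among all genes. All but Perp and Bcl2 differed by less than 0.5 log2 units, and 16 by less than 0.15. Since a p above the threshold does not show that levels were equal, the 95% intervals are given as well. They lay within 1 log2 unit of 0 on either side for 26 of the 31 genes (83.9%, and 84.2% of all genes) and reached past it for Perp, Sesn1, Bak1, Bcl2 and Casp8. Standard errors of the members ranged from 0.15 to 0.38, with a median of 0.21.

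**Figure D1:**
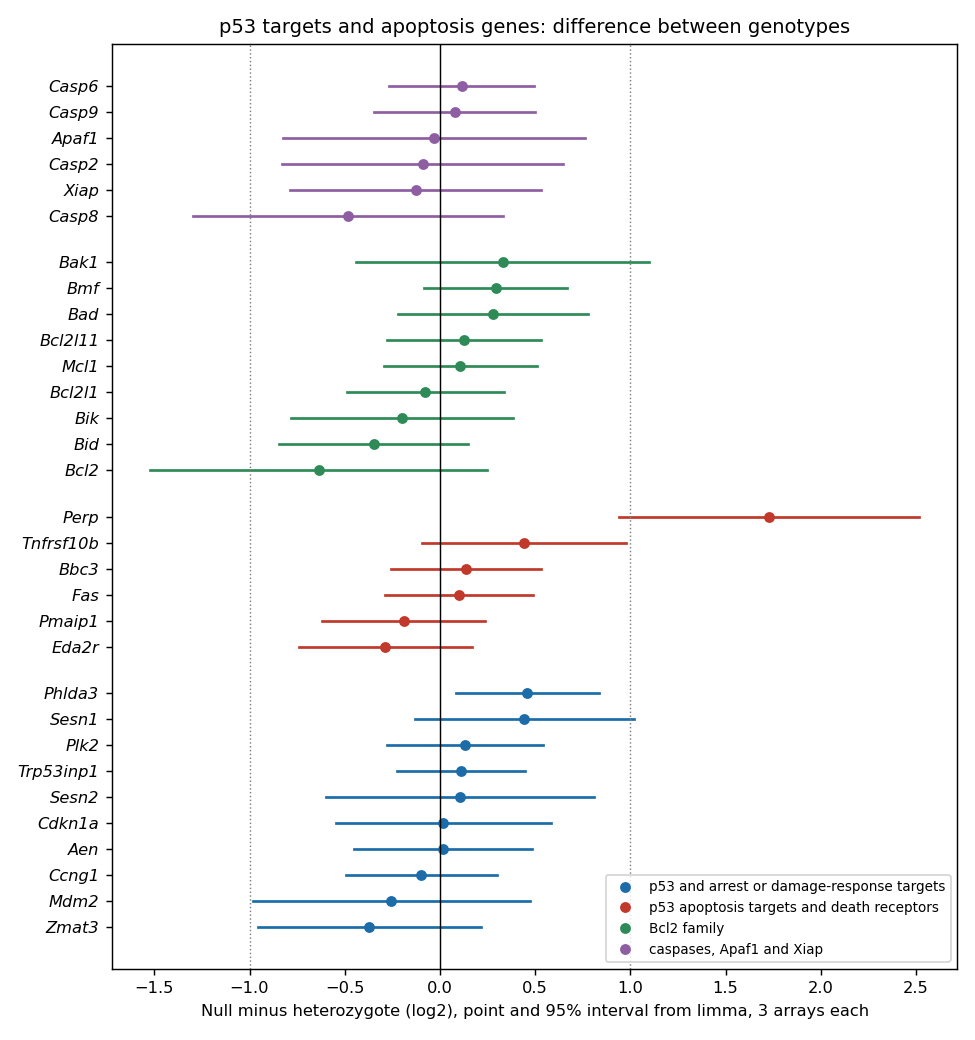
Difference between null and heterozygote (log2, x axis) for each of the 31 measured genes, grouped by role, with points for the fitted difference and lines for its 95% interval (limma, 3 arrays per genotype); dotted lines mark 1 log2 unit. Perp, at 1.73, stands apart from the others, which lie between -0.64 and 0.46.

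Among p53 targets of cell cycle arrest, damage response and p53 control, 10 genes were measured, of which 7 had positive and 3 negative differences, with a median of 0.06. Cdkn1a, which encodes the cyclin-dependent kinase inhibitor p21 and is the best-known p53 target, read 9.76, 9.71 and 9.46 in heterozygotes 1 to 3 and 9.93, 9.93 and 9.12 in nulls 1 to 3. Null 3 stood below all heterozygotes, and nulls 1 and 2 stood above them. The difference was 0.02 ± 0.24 (SE), with a 95% interval of -0.55 to 0.58, and a second probe set of the gene gave -0.34 ± 0.21. The sign of this difference turned when the arrays were centred on their medians (-0.01) and when the probe sets were averaged (-0.16), so no direction can be given for Cdkn1a. Mdm2, the ubiquitin ligase that p53 induces and that in turn limits p53, read 9.30, 10.44 and 10.39 in heterozygotes 1 to 3 and 9.95, 9.90 and 9.51 in nulls 1 to 3. Heterozygote 1 was the lowest array and null 3, its partner in pair 1, the next, and the groups overlapped. The difference was -0.26 ± 0.31, and it ran from -0.63 without heterozygote 1 to -0.056 without heterozygote 2 (-0.082 without heterozygote 3). The 3 probe sets of Mdm2 lay on both sides of 0, from -0.39 to 0.23.

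In the 250 bases before their RefSeq starts, 5 of the 11 p53-target genes that have an entry in the promoter table hold the p53 decamer, the 10-base unit of the p53 response element, without mismatch. The pattern reads the same on both strands. Of the 25 measured members with an entry, 6 hold it in at least 1 window, the other being Bmf, where 8.2% of all 27025 genes with an entry do. By window, it occurs in 6 of the members' 38 and in 7.13% of all 32851. A match of this kind describes the letters and does not show binding. The stretches around it are shown for 4 of these genes because they hold the unit that p53 is known to recognise, in genes whose RNA gave no call here. They are written 5′ to 3′ on the gene's strand, in build GRCm38.p6, with the decamer in capitals.
Cdkn1a (chr17:29090886-29090957, plus strand, from 73 bases before 1 of its 2 listed starts): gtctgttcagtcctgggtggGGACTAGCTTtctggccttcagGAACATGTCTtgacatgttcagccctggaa
Mdm2 (chr10:117710915-117710964, minus strand, 186 bases before the start): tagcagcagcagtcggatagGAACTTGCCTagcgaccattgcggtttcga
Ccng1 (chr11:40755442-40755491, minus strand, 185 bases before the start): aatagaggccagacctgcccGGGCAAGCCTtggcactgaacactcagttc
Sesn1 (chr10:41887246-41887295, plus strand, 173 bases before 1 of its 2 listed starts): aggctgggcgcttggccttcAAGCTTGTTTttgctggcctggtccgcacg
Cdkn1a holds 2 decamers without mismatch and the other 3 genes 1 each. Only single decamers without mismatch were searched for, so the capitals do not mark whole response elements. Aen, with a decamer 121 bases before 1 of its 2 starts, is the fifth gene. Their RNA differences were 0.02 for Cdkn1a, -0.26 for Mdm2, -0.10 for Ccng1, 0.44 for Sesn1 and 0.02 for Aen, so genes with this sequence lay on both sides of 0 and none passed. Perp, Pmaip1, Trp53inp1, Zmat3, Tnfrsf10b and Bik had no matching entry.

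Phlda3, a p53 target whose product competes with Akt for membrane lipids and so lowers Akt signalling, read 8.54, 8.62 and 8.35 in heterozygotes 1 to 3 and 8.95, 9.14 and 8.81 in nulls 1 to 3. All nulls lay above all heterozygotes, and the difference was 0.46 ± 0.16 with an interval of 0.08 to 0.83. This missed the threshold (limma, adjusted p = 0.352 over all genes, and 0.154 with the array pair as a block). Sesn1, which encodes a stress-induced sestrin that restrains mTORC1, read 8.69, 8.33 and 7.96 in heterozygotes 1 to 3 and 8.87, 8.38 and 9.05 in nulls 1 to 3. The groups overlapped, yet within every array pair the null was higher, by 0.36, 0.54 and 0.42 in pairs 1, 2 and 3, and all 4 probe sets of the gene were positive, from 0.31 to 0.44. Its adjusted p in limma was 0.717, or 0.0909 with the pair as a block. Zmat3, an RNA-binding zinc finger protein induced by p53, read 8.80, 8.09 and 8.36 in heterozygotes 1 to 3 and 7.73, 7.94 and 8.47 in nulls 1 to 3. The null was lower in each pair, by -0.33, -0.36 and -0.42, and the difference of -0.37 ± 0.25 did not pass (limma, adjusted p = 0.828, and 0.122 with the block).

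The other 5 members of this role had differences between -0.10 and 0.13. Ccng1, cyclin G1, which acts with Mdm2 to restrain p53, differed by -0.10 ± 0.17, and its 3 probe sets were all negative. Trp53inp1, a stress protein that promotes p53 phosphorylation, differed by 0.11 ± 0.15, and Plk2, a polo-like kinase, by 0.13 ± 0.18. The sestrin gene Sesn2 differed by 0.10 ± 0.30 and the apoptosis-enhancing nuclease gene Aen by 0.02 ± 0.20. The 4 probe sets of Aen ranged from -0.62 to 0.02, so that its probe set of highest mean, which stands for the gene, was the only positive one.

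Of the p53 targets that act in cell death, 6 were measured, with 4 positive and 2 negative differences and a median of 0.12. Perp was higher in nulls, with 6.92, 6.29 and 5.75 in heterozygotes 1 to 3 and 7.52, 8.16 and 8.46 in nulls 1 to 3. All nulls lay above all heterozygotes. Perp encodes a tetraspan membrane protein that is induced by p53 in dying cells and is also a component of desmosomes in stratified epithelia, where the p53 relative p63 activates it. Mean levels were 6.32 ± 0.59 in heterozygotes and 8.05 ± 0.48 in nulls (SD, n = 3 each), a 3.31-fold difference with an interval of 0.94 to 2.52 on the log2 scale. The test over all genes was missed (limma, adjusted p = 0.0621) and was met with the array pair as a block (adjusted p = 0.0211), where Perp was the only 1 of 31 members to pass and 4.53% of all genes did. The null exceeded the heterozygote by 1.54, 1.23 and 2.41 in pairs 1, 2 and 3. Over the alternatives, limma's adjusted p for Perp ran from 0.0159 to 0.200 with a positive difference in each, and it stood under 0.05 without heterozygote 1 (0.0226) but not without any other array. The gene has 1 probe set on the array, so no second one could be compared.

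Markers listed for surface and basal epithelium were mostly higher in nulls, as was Perp. The list is mixed, since it also holds uroplakin genes of urothelium and the endodermal genes Foxa1 and Foxa2. It was also written with earlier results of these data known, so its counts describe these genes and are not a test. Of the 13 listed genes, 12 had positive differences, against 46.4% of all genes. Trp63, Krt5, Gjb2 and Foxa2 passed the test and rose, where 0.808% of all genes did. The summed level of all 13 genes ran from 9.94 to 10.67 on the log2 scale in heterozygotes and from 11.35 to 11.85 in nulls. Array values have no zero, but Krt14, Krt17 and Foxa1 lay below the 33rd percentile of all probe sets (4.81) in their mean, and the urothelial Upk2 had the only negative difference (-0.13). The part of any of these cell types in the level of Perp was not tested.

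The remaining death genes of this role gave no call. Bbc3, which encodes the BH3-only protein PUMA, read 6.65, 6.59 and 6.38 in heterozygotes 1 to 3 and 6.84, 6.73 and 6.45 in nulls 1 to 3, with overlapping groups and a difference of 0.14 ± 0.17. Pmaip1, which encodes the BH3-only protein NOXA, read 3.13, 2.69 and 3.01 in heterozygotes 1 to 3 and 2.64, 2.63 and 2.99 in nulls 1 to 3, and Fas, the receptor of Fas ligand, differed by 0.10 ± 0.17. Pmaip1 was lower in the null of every pair, by a difference of -0.19 ± 0.18 over all arrays. Eda2r, a receptor for ectodysplasin A2 that lies on the X chromosome, read 5.19, 4.76 and 4.58 in heterozygotes 1 to 3 and 4.39, 4.59 and 4.70 in nulls 1 to 3, with overlapping groups and a difference of -0.29 ± 0.20. Pmaip1, Fas and Eda2r were the only members whose mean fell below the 33rd percentile. Tnfrsf10b, the mouse receptor for TRAIL, read 7.02, 6.86 and 6.70 in heterozygotes 1 to 3 and 6.91, 7.75 and 7.24 in nulls 1 to 3. Null 2 was highest and null 1 lay among the heterozygotes. The difference was 0.44 ± 0.23 (limma, adjusted p = 0.662), and within pair 3 it was 1.05 against 0.22 and 0.05 in the other 2.

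**Figure D2:**
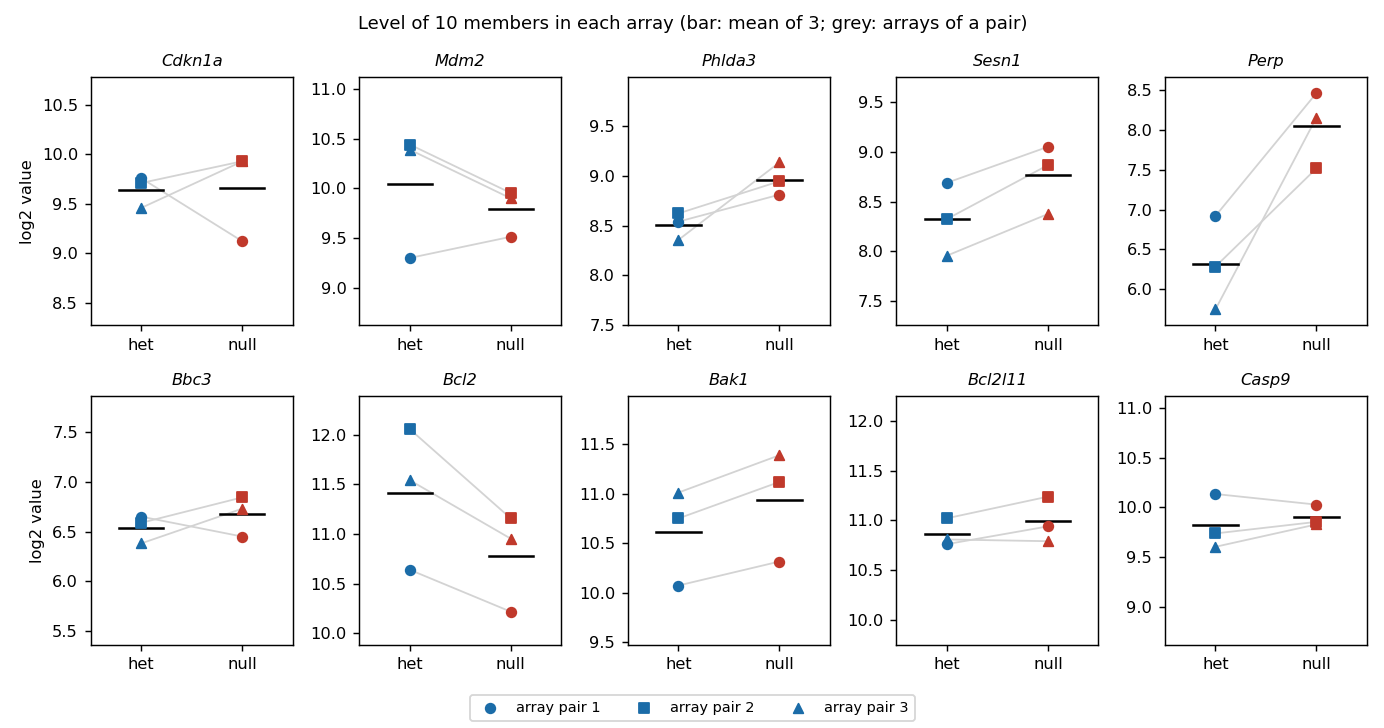
Log2 level (y axis, a separate range in each panel) of 10 members in each of the 6 arrays, heterozygotes in blue and nulls in red; bars are means of 3 arrays and grey lines join the arrays of a pair. Perp and Phlda3 show no overlap between genotypes, whereas in Mdm2, Bcl2 and Bak1 both arrays of pair 1 lie lowest within their genotype.

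All 9 listed Bcl2 family genes were measured, with 5 positive and 4 negative differences and a median of 0.11. The protective member Bcl2, which is expressed in embryonic kidney and whose loss in mice leaves small cystic kidneys, showed the most negative difference of all members. Its probe set of highest mean read 10.64, 12.06 and 11.54 in heterozygotes 1 to 3 and 11.16, 10.95 and 10.22 in nulls 1 to 3. Heterozygote 1 and null 3, both of pair 1, were the lowest of their genotypes, and the groups overlapped. The difference was -0.64 ± 0.38 (limma, adjusted p = 0.756), with an interval of -1.52 to 0.25, and with the array pair as a block the adjusted p was 0.0649.

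The gene has 5 probe sets, and all were lower in nulls, by -0.33 to -0.90. In 2 of them the arrays did not overlap between genotypes. The first of these read 8.01, 8.72 and 8.73 in heterozygotes 1 to 3 and 7.22, 7.94 and 7.59 in nulls 1 to 3, a difference of -0.90 ± 0.27 (unadjusted p = 0.00948 in limma, adjusted p = 0.256 over all probe sets). The second read 9.82, 10.15 and 9.85 in heterozygotes 1 to 3 and 8.91, 8.83 and 9.49 in nulls 1 to 3, a difference of -0.87 ± 0.22 (unadjusted p = 0.00427 in limma, adjusted p = 0.169). Over the 5 probe sets and 3 array pairs, the null was below the heterozygote in 14 of 15 comparisons, which are not independent since the probe sets share the arrays. No Bcl2 probe set passed over the 34958 probe sets, with or without the pair as a block. The second of those 2 probe sets passed with array weights (limma, adjusted p = 0.0426). Averaged over its probe sets, Bcl2 differed by -0.67 (limma, adjusted p = 0.180). Over the alternatives, the difference of the gene's main probe set ran from -1.02 without heterozygote 1 to -0.31 without heterozygote 2.

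The other protective members had small differences. Mcl1, a short-lived protective protein, read 10.76, 10.51 and 10.52 in heterozygotes 1 to 3 and 10.47, 10.74 and 10.91 in nulls 1 to 3, a difference of 0.11 ± 0.17. Its 6 probe sets all were positive, though by no more than 0.25. Bcl2l1, which encodes Bcl-xL, read 8.82, 8.48 and 8.63 in heterozygotes 1 to 3 and 8.34, 8.59 and 8.78 in nulls 1 to 3, a difference of -0.08 ± 0.18. Its 4 probe sets did not share a sign and ran from -0.59 to 0.42, so the sign given for this gene depends on the probe set chosen.

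Bak1, one of the effectors that permeabilise mitochondria, read 10.07, 10.75 and 11.01 in heterozygotes 1 to 3 and 11.12, 11.39 and 10.31 in nulls 1 to 3. As in Bcl2, both arrays of pair 1 were low, and within the 3 pairs the null was higher by 0.24, 0.37 and 0.38. The difference was 0.33 ± 0.33 (limma, adjusted p = 0.944, and 0.164 with the block), and the second probe set gave 0.29.

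The BH3-only genes, whose products are the sensors that start the mitochondrial pathway, did not share a direction. Bcl2l11, which encodes BIM, read 10.76, 11.02 and 10.81 in heterozygotes 1 to 3 and 11.24, 10.79 and 10.94 in nulls 1 to 3, a difference of 0.13 ± 0.18. All 5 of its probe sets were positive, from 0.13 to 0.41, and 13 of the 15 differences within pairs were positive. Bmf, a BH3-only protein linked to the cytoskeleton, read 9.78, 9.55 and 9.57 in heterozygotes 1 to 3 and 9.92, 10.10 and 9.75 in nulls 1 to 3, with overlapping groups. Its difference was 0.29 ± 0.16, with all 3 probe sets positive. Bad, which growth factor signalling holds inactive, read 10.51, 9.87 and 10.08 in heterozygotes 1 to 3 and 10.34, 10.24 and 10.71 in nulls 1 to 3. The null was higher in every pair, by 0.20, 0.47 and 0.17, and the difference was 0.28 ± 0.22.

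Bid, which links death receptors to mitochondria, read 7.69, 7.11 and 7.35 in heterozygotes 1 to 3 and 6.74, 7.28 and 7.09 in nulls 1 to 3. The null was lower in every pair, most so in pair 1, and the difference was -0.35 ± 0.21. All 3 probe sets of Bid were negative, as were all 3 of Bik, another BH3-only gene, which differed by -0.20 ± 0.25. In 1 probe set of Bid the arrays did not overlap, with 6.61, 6.21 and 6.22 in heterozygotes 1 to 3 and 5.77, 5.91 and 5.996 in nulls 1 to 3, and a difference of -0.45 ± 0.18 (unadjusted p = 0.0331, limma adjusted p = 0.481). None of the 5 BH3-only genes of this family passed.

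**Figure D3:**
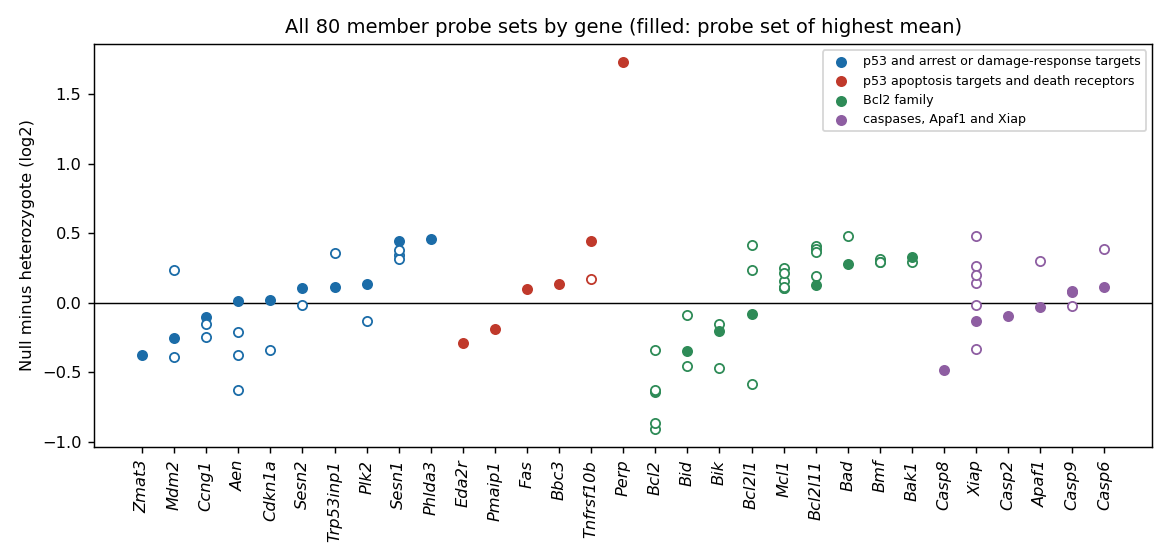
Difference between null and heterozygote (log2, y axis) of all 80 member probe sets, 1 column per gene and coloured by role; filled points mark the probe set of highest mean, which stands for the gene. All 5 Bcl2 probe sets lie below 0, all 5 of Bcl2l11 and all 6 of Mcl1 lie above it, and those of Xiap and Bcl2l1 spread to both sides.

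Caspases, Apaf1 and Xiap gave no call, with 2 positive and 4 negative differences and a median of -0.06. Casp9, the initiator that the apoptosome activates, read 10.14, 9.74 and 9.60 in heterozygotes 1 to 3 and 9.85, 9.83 and 10.03 in nulls 1 to 3, a difference of 0.08 ± 0.18 with an interval of -0.34 to 0.50. Apaf1, the scaffold of the apoptosome and itself a p53 target, read 9.02, 8.34 and 8.33 in heterozygotes 1 to 3 and 8.44, 7.93 and 9.23 in nulls 1 to 3. Heterozygote 1 and null 3, the arrays of pair 1, were the 2 highest, and the difference was -0.03 ± 0.34. A second probe set gave 0.30, so Apaf1 has no settled sign.

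Xiap, an inhibitor that binds caspases directly, read 9.16, 8.32 and 8.93 in heterozygotes 1 to 3 and 8.28, 8.61 and 9.13 in nulls 1 to 3, a difference of -0.13 ± 0.29. Its 7 probe sets ran from -0.33 to 0.48, with 4 positive and 3 negative. Xiap, like Eda2r, lies on the X chromosome, and Xist levels differed between arrays as given above; their part in the levels of both genes was not tested. Casp8, the initiator at death receptors, differed by -0.48 ± 0.35. Its level was 7.85, 8.32 and 8.23 in heterozygotes 1 to 3 and 6.95, 8.44 and 7.56 in nulls 1 to 3, so that nulls 1 and 3 were the lowest arrays and null 2 the highest. The difference of Casp8 was -0.13 without null 1 and -0.88 without null 2. The initiator Casp2 differed by -0.09 ± 0.32 and the executioner Casp6 by 0.11 ± 0.16.

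Of the 22 genes with more than 1 probe set, 13 had all probe sets on the same side of 0 and 9 did not. At the level of probe sets, 46 of 80 differences were positive, 0 passed in limma over all probe sets (1.07% of all did), and 1, that of Perp, passed with the array pair as a block (2.89% of all did). An unadjusted p under 0.05 was reached by 5, against 8.63% of all probe sets: those of Perp and Phlda3, 2 of Bcl2 and 1 of Bid. In 8 of 80 the arrays did not overlap, against 12.7% of all, and beside those 5 they were single probe sets of Aen, Bcl2l11 and Plk2. The null differed in the same direction from its partner in all 3 pairs for 13 of the 31, where 42.6% of all genes did.

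Beyond these 31 genes, other lists of the same pathways held 4 genes that passed. These lists too were written with earlier results of these data known, so their counts are descriptions. Trp63 is also on the list of surface and basal epithelium given above. Among 22 other regulators of p53, Trp63 was the 1 gene that passed, where 1.39% of all genes did. An unadjusted p under 0.05 was reached by 2, Trp63 and Chek2, against 9.73% of all genes. Trp63, the p53 relative of basal epithelia whose protein binds the same response elements, read 5.32, 5.61 and 5.49 in heterozygotes 1 to 3 and 9.65, 9.85 and 9.50 in nulls 1 to 3, a rise of 4.20 ± 0.17 (SE; limma, adjusted p = 1.34e-04). The call was shared by 3 of the gene's 4 probe sets. It stayed under the threshold without any 1 array (limma, adjusted p up to 0.00339). The damage kinases Chek2, Atm and Atr had differences of -0.47, -0.42 and -0.46 that did not pass (limma, adjusted p = 0.447, 0.607 and 0.633). The median over the 22 genes was -0.02.

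Among 43 other p53 targets, 1 rose (0.808% of all genes did) and 1 fell (0.583% did), with 15 positive and 28 negative differences and a median of -0.07. Rprm, which encodes Reprimo, a p53-induced protein that arrests cells before mitosis, read 11.25, 11.15 and 10.89 in heterozygotes 1 to 3 and 9.18, 9.27 and 9.11 in nulls 1 to 3. The nulls lay close together and below every heterozygote, a difference of -1.92 ± 0.16 on the log2 scale (limma, adjusted p = 0.00332) that held without any 1 array (up to 0.0214). Igfbp3, a secreted protein that binds insulin-like growth factors, read 7.92, 6.67 and 6.87 in heterozygotes 1 to 3 and 9.53, 9.11 and 9.48 in nulls 1 to 3. Its rise of 2.22 ± 0.32 had a limma adjusted p of 0.0190, which was lost without heterozygote 2 (0.0663), heterozygote 3 (0.0872), null 1 (0.0686), null 2 (0.0546) or null 3 (0.0565). Gadd45a, a growth arrest gene induced by DNA damage, read 8.83, 9.04 and 8.62 in heterozygotes 1 to 3 and 8.32, 8.18 and 8.25 in nulls 1 to 3. The groups did not overlap, and its difference of -0.58 ± 0.16 did not pass (limma, adjusted p = 0.199, and 0.0554 with the block). With the array pair as a block, Ptprv (0.81), a phosphatase gene induced by p53, and Ier5 (0.68) passed in limma as well (adjusted p = 0.0356 and 0.0403). This made 3 rises and 1 fall among the 43, where 4.53% of all genes passed with the block in either direction. Without the block, 8 of the 43 had an unadjusted p under 0.05 in limma, against 9.73% of all genes. In 7 the arrays did not overlap between genotypes, against 13.6%.

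Of 12 other genes of the Bcl2 and Bag families, none passed in limma with or without the block, and none had an unadjusted p under 0.05. Their differences were 6 positive and 6 negative, with a median of 0.0007. The smallest p belonged to Bag4 (-0.40 ± 0.18), Bnip3 (-0.57 ± 0.27), Bcl2l2 (-0.59 ± 0.29) and Bcl2l14 (-0.25 ± 0.30), all negative. Averaged over its probe sets, Bcl2l2 differed by just -0.13 (limma, adjusted p = 0.951), so its size depends on the probe set chosen. Bcl2l2 encodes the protective protein Bcl-w, and Bnip3 a mitochondrial protein induced by low oxygen. Of 37 other genes of caspases, death receptors and their partners, 1 fell, where 0.583% of all genes did. This was Tnfrsf21, death receptor 6, which read 9.23, 8.98 and 8.85 in heterozygotes 1 to 3 and 8.20, 8.17 and 8.07 in nulls 1 to 3, a difference of -0.87 ± 0.16 on the log2 scale (limma, adjusted p = 0.0469). The call was lost without each array in turn, with adjusted p from 0.0749 without heterozygote 1 to 0.151 without heterozygote 2, although the groups did not overlap and its second probe set differed by -1.30. The list's median was -0.01, and Dapk2 (-0.40), Dap (0.47) and Tradd (0.33) did not pass.

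**Figure D4:**
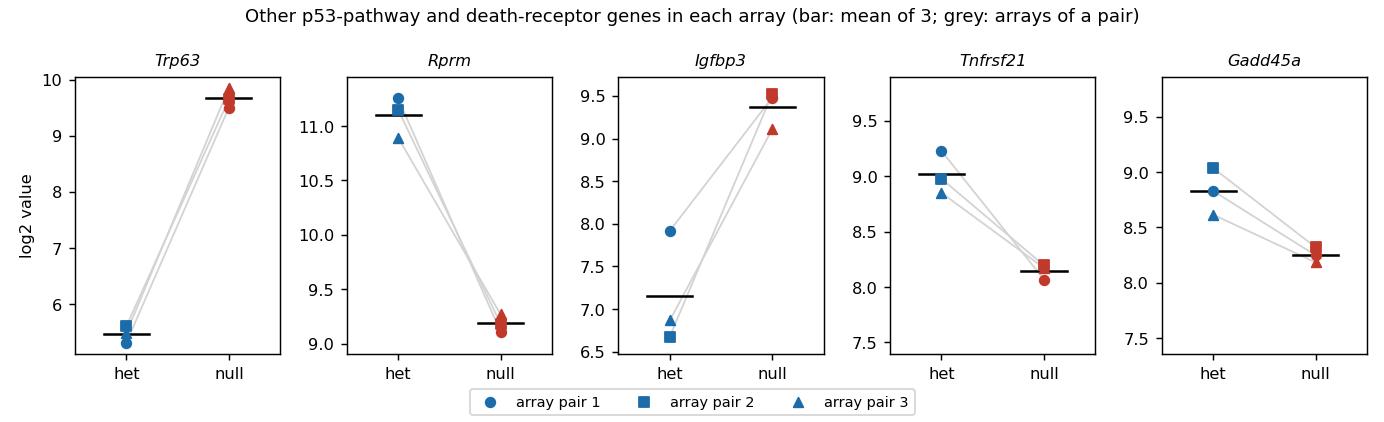
Log2 level (y axis, a separate range in each panel) of 5 genes outside the 31 in each of the 6 arrays, heterozygotes in blue and nulls in red; bars are means of 3 arrays and grey lines join the arrays of a pair. None of the 5 overlaps between genotypes, with Trp63 and Igfbp3 higher and Rprm, Tnfrsf21 and Gadd45a lower in nulls; Gadd45a did not pass the test.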

How the data were processed

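The deposited table gives 1 log2 value per probe set and array. Per the submitters' processing notes, the authors used affy, RMA and limma, without versions or settings. RMA forces the arrays to a common distribution, and differences of dim probe sets come out too small. Per the labels' protocols, each array took amplified cDNA made from 10 ng of RNA.

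The probe set of highest mean stood for its gene. Genotypes were tested against each other in limma (version 3.58.1, R version 4.3.3; lmFit, then eBayes, two-sided, no covariates) over all 18194 genes, and separately over all 34958 probe sets with 1 symbol, with Benjamini-Hochberg adjustment and a threshold of 0.05. Errors of differences are standard errors from the fit and intervals are 95%. The fit was tested on simulated data. Array pairs were the best of 15 matchings on 14 hybridization control probe sets (summed distance 1.94, next 5.05), and served as a block in an alternative fit; this pairing comes from the data and not from the labels. The members, lists, tests and alternatives were chosen with earlier results of these data known. Values in all arrays are given for members that passed with or without the block, the 12 members of smallest p and 13 key members, of which 11 were measured; from other lists, genes that passed and up to 4 of smallest p are named. Other genes named were chosen after their values were seen. The labels do not say that samples came from separate litters, and p-values then reflect just the spread among these 6 samples, whose number limits the precision. Promoter sequences are RefSeq's (GRCm38.p6), found for 25 of 31 members.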

Additional observations from a re-analysis of the deposited data

How the results depend on the processing

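The count of 0 member genes became 1, Perp in each case, with an intensity-dependent prior, without probe sets under the 33rd percentile, with array weights, with the mean over probe sets, with the array pair block and at an adjusted p under 0.10, and ran from 0 to 1 with an array left out. The count of 0 member probe sets became 2 with array weights, 1 with the block and 1 at 0.10, and ran from 0 to 1 with an array left out. The median difference of the members lay between -0.033 (without heterozygote 3) and 0.076 with an array left out. Other p53 targets past the threshold numbered 4 of 43 with the block, where 4.53% of all genes passed, and 1 to 2 with an array left out. Other caspase and death receptor genes, 1 in the main comparison, numbered 0 with the intensity-dependent prior, 0 with median centring and 0 in each fit with an array left out. The counts of other p53 regulators (1) and of other Bcl2 family genes (0) were the same under all 16 alternatives. Signs turned with median centring for Cdkn1a (-0.013) and Aen (-0.013), and with the mean over probe sets for Cdkn1a (-0.16), Aen (-0.30), Apaf1 (0.13) and Xiap (0.088). With an array left out, signs turned in Cdkn1a (-0.12 to 0.29), Aen (-0.15 to 0.21), Sesn2 (-0.20 to 0.42), Ccng1 (-0.19 to 0.034), Fas (-0.0050 to 0.22), Bcl2l1 (-0.18 to 0.040), Casp2 (-0.38 to 0.18), Casp9 (-0.033 to 0.23), Apaf1 (-0.38 to 0.27), Xiap (-0.37 to 0.070) and Bcl2l14 (-0.55 to 0.041). None of these was called, and the cause was not tested. The labels give no replicate numbers shared between genotypes, so the paired fit, with the array pair as a block, rests on pairs found from the hybridization controls alone. Differences of dim genes, here Fas, Pmaip1 and Eda2r, are the least reliable.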

Other observations

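Cell cycle genes that p53 can lower through the DREAM repressor complex, a later effect of Cdkn1a, were mostly on the negative side, though none passed. Of 21 measured genes, 18 had negative differences, with a median of -0.10 beside -0.02 over all genes and 46.4% positive among all genes. The largest sizes were those of Plk4 (-0.45 ± 0.18), the kinase of centriole duplication, and Cenpe (-0.43 ± 0.28), a kinetochore motor, and Bub1, a checkpoint kinase, differed by -0.32 ± 0.15. Top2a, which untangles replicated DNA, differed by -0.20 ± 0.17. Only Plk4 had an unadjusted p under 0.05 (limma, adjusted p = 0.462), against 9.73% of all genes. Past the adjusted threshold were 0 of the 21 without the block, where 1.39% of all genes passed. With the array pair as a block 0 passed, where 4.53% of all genes did. The 21 genes share the arrays, so their signs are not independent. The mean level of the list ran from 9.92 to 10.05 in heterozygotes and from 9.87 to 9.89 in nulls, so the genotypes did not overlap, by a narrow margin. The part of p53, of cell division or of the mix of cell types in these levels was not tested.

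Genes that respond within minutes to the dissociation of tissue, which the sort requires, gave 14 positive and 8 negative differences among 22, with a median of 0.14. Mean levels overlapped, from 8.02 to 8.54 in heterozygotes and from 8.01 to 8.41 in nulls. Single differences ran from -1.01 to 0.81. None passed without the block (limma), and 3 had an unadjusted p under 0.05, against 9.73% of all genes. With the array pair as a block, Myc, a growth regulator that is also abundant in embryonic kidney, was lower (-0.94 ± 0.24, limma adjusted p = 0.0112, from 0.139 without it) and Klf4, which cooperates with p53 at Cdkn1a, was higher (0.81 ± 0.24, adjusted p = 0.0195, from 0.231). With the block, 4.53% of all genes passed, in either direction. Klf6 (0.59) and Dusp1 (0.37) did not pass. The classical immediate-early gene Egr1 differed by 0.01 and Jun by -0.03.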
